A study of Mus musculus with 20 samples.

Results

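The urea cycle and amino acid catabolism genes described here are 39 liver enzymes and carriers listed by symbol. Of these, 38 had a row in the count table of 54532 genes, and all 38 passed the filter of at least 2 CPM (a gene's count relative to the scaled total of its library) in at least 3 mice, as did 12289 genes in all. *Bckdhk* matched no symbol in the annotation. The branched-chain ketoacid dehydrogenase kinase, annotated as *Bckdk*, stood instead in a list of further enzymes, where it passed the test in no contrast.

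Liver RNA came from 20 male C57BL/6 mice, 1 library per mouse and 5 mice per group. Before surgery all had become obese during 12 weeks of high-fat feeding (HFD), and the 4 groups differ in what followed. Sham Chow mice had a sham operation and then chow, and RYGB Chow mice had Roux-en-Y gastric bypass (RYGB), an operation that reroutes food past most of the stomach and the upper small intestine, and then chow. Sham HFD and RYGB HFD mice had the same operations and stayed on HFD, and all livers were taken 8 weeks after surgery. The study describes its transcriptomes as those of the fasted state. No group in the series stayed lean throughout, so the chow groups are formerly obese mice moved to chow. The study describes Sham HFD mice as heavier than the other groups, and counts Sham Chow, RYGB Chow and RYGB HFD mice as lean. Wherever Sham HFD mice are compared, diet or surgery and weight cannot be told apart. Body weight was not analysed here, also not among the lean groups.

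The liver removes the nitrogen of amino acids by passing it, through transaminases and glutamate, to carbamoyl phosphate and aspartate, which the urea cycle turns into urea. The carbon skeletons of tyrosine, tryptophan, histidine, lysine and the branched-chain amino acids are broken down by their own series of enzymes and feed glucose, ketone or energy production. Many of these enzymes are made mainly in hepatocytes, and their transcripts are known to respond to dietary protein, fasting, glucagon and glucocorticoids.

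Total counts lay between 14604854 and 22537498 per mouse, and the scaling factors that set libraries on 1 scale (TMM) between 0.916 and 1.13. All 6 hepatocyte markers examined (*Alb*, *Apoa1*, *Ttr*, *Trf*, *Apob* and *Fgb*) were present, with a summed level of 73012 to 121729 CPM. The study reports *Trf* and *Fgb* among genes raised by HFD after RYGB, so the sum is not a measure of hepatocyte content alone. In bulk liver, fewer cells of a type and less RNA per cell cannot be told apart. A gene is called where edgeR's quasi-likelihood test, fitted over all 12289 genes and 20 mice, gave a Benjamini-Hochberg adjusted p below 0.05. Log2 fold changes are of the second group over the first. Replicate numbers name separate mice.

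Per kilobase of exon, *Ass1* was the most abundant member in every group, at 1400 CPM per kb in Sham Chow and 1050 in RYGB Chow on chow, against 863 (Sham) and 941 (RYGB) on HFD. *Ass1* encodes argininosuccinate synthase, which joins citrulline to aspartate. *Hpd*, which encodes the dioxygenase of the second step of tyrosine breakdown, came next in every group, from 926 CPM per kb in Sham Chow to 753 in Sham HFD. *Cps1* encodes carbamoyl phosphate synthetase, the entry enzyme of the cycle, and ranked 3 in Sham Chow, RYGB Chow and RYGB HFD but 6 in Sham HFD, at 349 CPM per kb. The lowest member was *Asrgl1*, an asparaginase-like enzyme, between 1.88 and 3.85 CPM per kb. These levels depend on the exon length of the annotation, which counts the exons of all transcripts.

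**Figure D1:**
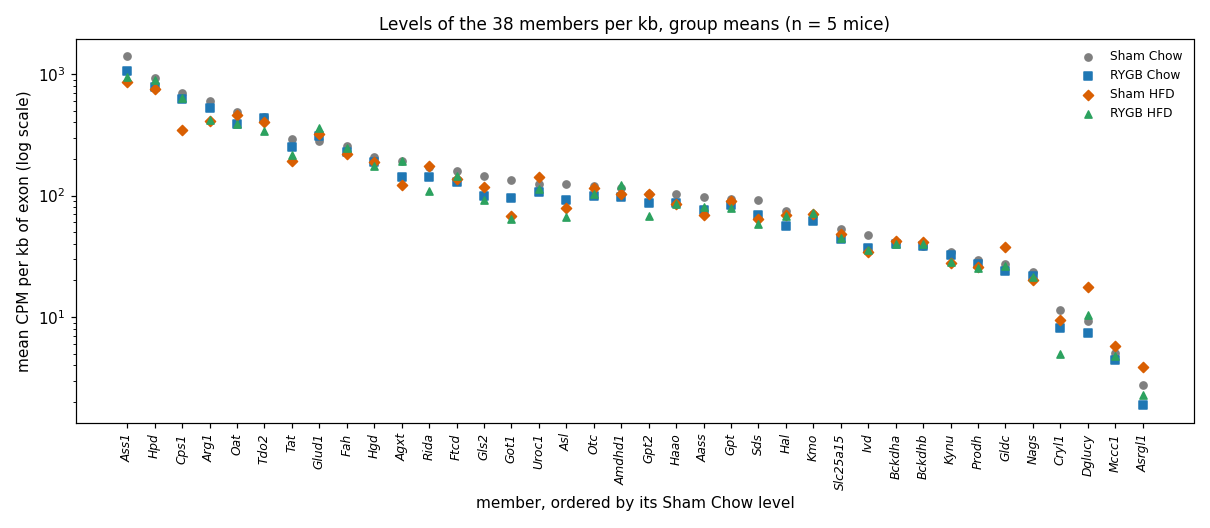
Mean CPM per kb of exon (log axis) of the 38 members in each group (n = 5 mice), ordered by the Sham Chow level. The members run from *Ass1* at 1400 to *Asrgl1* at 2.77 CPM per kb in Sham Chow, and *Cps1*, *Dglucy* and *Asrgl1* in Sham HFD stand off from the other groups.

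Counting reads per gene leaves some members less certain. The exons of *Bckdha*, a subunit of the branched-chain ketoacid dehydrogenase, share 61.7% of their bases with *B3gnt8* on the other strand, and those of *Sds* share 21.3% with *Plbd2*. The libraries kept strand, but the strand setting of the counting is not given in the sources used here. The spread between mice also differed among members. The coefficient of variation within groups averaged 6.54% for *Bckdha* and 7.70% for *Rida*, a deaminase that clears reactive intermediates of amino acid breakdown, and 39.5% for *Sds*, serine dehydratase. Its median over members was 13.9%, beside 13.8% over all tested genes. By group, the members' median was 22.9% in RYGB Chow, 15.1% in Sham Chow, 12.4% in RYGB HFD and 7.32% in Sham HFD, where all tested genes gave 15.2%, 14.3%, 13.3% and 11.6%.

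Single mice stood apart. Sham Chow replicate 2 was the lowest mouse of its group for 32 of the 38 members, against 23.2% of all tested genes, and lay at a median of -0.40 on the log2 scale from the middle mouse of the group. RYGB Chow replicate 3 was the lowest of its group for 31 of 38 members, against 23.7% of all genes, at a median of -0.62. RYGB HFD replicate 5 was the highest of its group for 19 of 38, against 23.6% of all genes. These mice were singled out after the values were seen. RYGB Chow replicate 3 also had the smallest share of mitochondrial counts of all mice, 4.02%, where the others of its group had 5.54% to 6.54%. Its summed macrophage markers were the highest, 553 CPM against 230 to 322, and its summed hepatocyte markers the lowest of its group, 75937 CPM against 86304 to 121687. In Sham Chow replicate 2 the hepatocyte markers summed to 94917 CPM, inside the range of its group. The part of these differences in the results was not tested, and member results that rest on these mice are given with and without them.

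**Figure D2:**
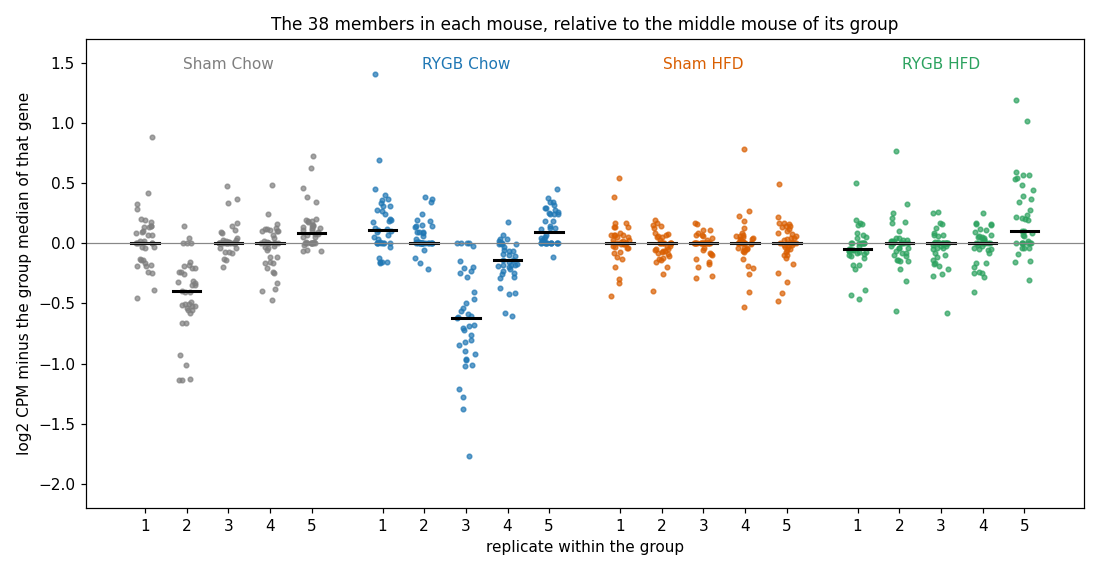
Each point is 1 of the 38 members in 1 mouse, as log2 CPM minus the median of its group, and the black bar is the median over members. Sham Chow replicate 2 and RYGB Chow replicate 3 lie below 0 for most members, with medians of -0.40 and -0.62, while the 5 Sham HFD mice lie close together.

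After a sham operation, 4 of the 7 urea cycle members were lower on HFD than on chow. In Sham Chow vs. Sham HFD, 7 of the 38 members were lower in Sham HFD, 18.4% of them where 10.7% of all tested genes were lower, and 2 were higher, 5.26% where 10.9% of all genes were higher. The 7 were *Cps1*, *Ass1*, *Asl*, *Arg1*, *Got1*, *Aass* and *Ivd*, and the 2 were *Dglucy* and *Asrgl1*. The median log2 fold change of the members was -0.19, beside 0 over all tested genes, and 27 of 38 lay below 0. Scaled by library size only, which moves the median of all genes by 0.13, 6 members were lower and 5 higher, with 22 of 38 below 0. The shares of all genes called at that scaling were not counted. The study's text names 4 members (*Rida*, *Dglucy*, *Asrgl1* and *Cryl1*) that it chose on these samples. Without them, 7 of 34 were lower and 0 higher. In 6 of 38 members the ranges of the groups did not overlap, 15.8%, where 16.5% of all genes did not. Without the 4 genes that the study names, it was 4 of 34.

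The 7 urea cycle members had a median log2 fold change of -0.56, and 0 rose. *Cps1* (ENSMUSG00000025991, chromosome 1, 67123026 to 67231259 on GRCm38) stood at 4579, 2179, 4653, 3976 and 4136 CPM in the Sham Chow mice and at 2147, 1817, 1915, 1828 and 1979 CPM in the Sham HFD mice. Every Sham HFD mouse lay below every Sham Chow mouse, although Sham Chow replicate 2 came within 32 CPM of the highest. The log2 fold change was -1.01 (standard error 0.20, adjusted p = 0.00114), and it ran from -1.16 to -0.94 when mice were left out in turn.

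*Ass1* (ENSMUSG00000076441, chromosome 2, 31470207 to 31520672) gave 4148, 1797, 3632, 3351 and 3966 CPM in Sham Chow and 2022, 2073, 2174, 2159 and 1989 CPM in Sham HFD. The low Sham Chow value is again that of replicate 2, which lies below all Sham HFD mice, while the other 4 lie above them. Its log2 fold change was -0.70 (standard error 0.23, adjusted p = 0.0316). *Asl* (ENSMUSG00000025533, chromosome 5, 130011258 to 130029247) encodes argininosuccinate lyase, which releases arginine. Sham Chow mice held 538, 412, 592, 641 and 812 CPM of it and Sham HFD mice 392, 362, 414, 373 and 384 CPM, so the groups overlapped only through Sham Chow replicate 2 and Sham HFD replicate 3. *Asl* fell by 0.64 on the log2 scale (standard error 0.19, adjusted p = 0.0212). *Arg1* (ENSMUSG00000019987, chromosome 10, 24915221 to 24927484) encodes arginase, which splits arginine into urea and ornithine. It measured 1078, 934, 1627, 1475 and 1616 CPM in Sham Chow and 881, 951, 901, 790 and 1051 CPM in Sham HFD. In Sham Chow 3 mice lay well above the Sham HFD range, and the others at or near it. The log2 fold change of *Arg1* was -0.56 (standard error 0.18, adjusted p = 0.0283).

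*Otc* (ENSMUSG00000031173, chromosome X, 10252305 to 10321024), whose product makes citrulline from ornithine, was not called. It lay at 551, 449, 472, 499 and 563 CPM in Sham Chow and at 532, 467, 484, 503 and 475 CPM in Sham HFD, ranges that overlap almost in full, and differed by -0.04 on the log2 scale (standard error 0.13, adjusted p = 0.836). *Nags*, which makes the activator of the first enzyme, and *Slc25a15*, the mitochondrial ornithine carrier, gave -0.22 and -0.13 and were not called. The calls of *Ass1* and *Arg1* depended on the mice included. *Ass1* was lost without Sham Chow replicate 1, 3 or 5 or any 1 Sham HFD mouse (adjusted p up to 0.0745), *Arg1* without Sham Chow replicate 3, 4 or 5 or Sham HFD replicate 1, 3 or 4 (up to 0.0793), and *Asl* without Sham Chow replicate 5 (0.0726).

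**Figure D3:**
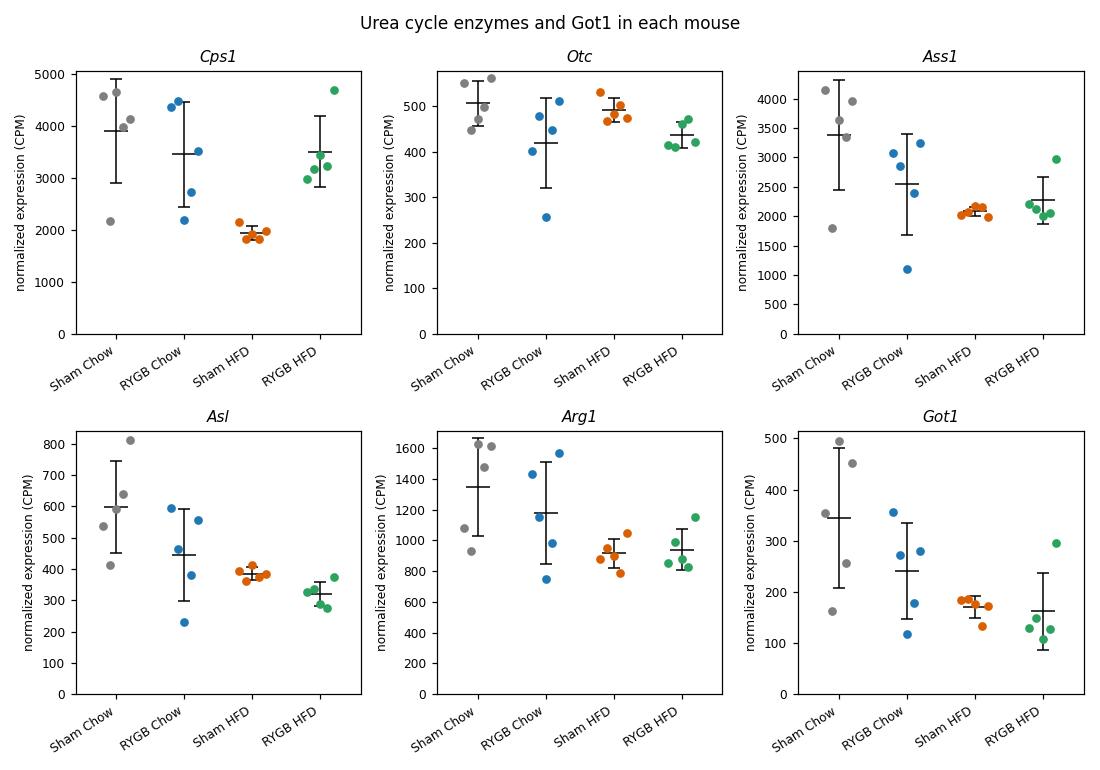
CPM of *Cps1*, *Otc*, *Ass1*, *Asl*, *Arg1* and *Got1* in each mouse (points), with the group mean (long bar) and SD (whiskers, n = 5 mice), on axes from 0. *Cps1* in the 5 Sham HFD mice lies between 1817 and 2147 CPM, below every other mouse of the study, whereas *Otc* shows no such drop.

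Among the transaminases and enzymes of glutamate and proline, *Got1*, the cytosolic aspartate aminotransferase, had a mean of 344 ± 137 CPM (SD, n = 5) on chow and fell to 171 ± 21.1 CPM on HFD, by 1.01 on the log2 scale (standard error 0.31, adjusted p = 0.0231). It lost its call without Sham Chow replicate 3 or 5 or Sham HFD replicate 4 (adjusted p up to 0.0714). *Dglucy* encodes D-glutamate cyclase, a mitochondrial enzyme that acts on D-glutamate, and rose instead. Its values (ENSMUSG00000021185, chromosome 12, 100779057 to 100896981) were 45.2, 35.0, 40.6, 48.6 and 44.5 CPM in Sham Chow and 87.8, 76.5, 79.9, 77.1 and 85.7 CPM in Sham HFD. The groups are far apart, the lowest Sham HFD mouse being 27.9 CPM above the highest Sham Chow mouse. The log2 fold change of *Dglucy* was 0.93 (standard error 0.10, adjusted p = 5.16e-06). The other 6 genes of this group, the glutaminase *Gls2*, the glutamate dehydrogenase *Glud1*, the alanine aminotransferases *Gpt* and *Gpt2*, the ornithine aminotransferase *Oat* and the proline dehydrogenase *Prodh*, were not called, with log2 fold changes from -0.29 to 0.18.

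Outside these groups, *Aass*, which starts the breakdown of lysine, fell from 371 ± 66.0 to 265 ± 9.44 CPM (log2 fold change -0.49, standard error 0.16, adjusted p = 0.0364). *Aass* lost its call with library size only and without Sham Chow replicate 1, 3 or 5 or any 1 Sham HFD mouse (adjusted p up to 0.0924 over all settings). *Ivd*, the isovaleryl-CoA dehydrogenase of leucine breakdown, fell from 259 ± 24.2 to 189 ± 14.2 CPM (-0.45, standard error 0.13, adjusted p = 0.0166), with no overlap between the groups. *Asrgl1* (ENSMUSG00000024654, chromosome 19, 9109868 to 9135636) rose from 11.5, 12.7, 11.5, 12.5 and 11.4 CPM in Sham Chow to 16.4, 16.5, 14.8, 16.6 and 18.5 CPM in Sham HFD. All Sham HFD mice lay above all Sham Chow mice, and the log2 fold change was 0.47 (standard error 0.10, adjusted p = 0.00239). None of the 4 tyrosine, 4 tryptophan or 4 histidine enzymes was called by this test, although 3, 1 and 0 of them had an unadjusted p below 0.05. Their log2 fold changes ran from -0.58 to -0.13, from -0.30 to 0.00 and from -0.20 to 0.18. Of these, *Tat* and *Tdo2* open the breakdown of tyrosine and tryptophan, and *Hal* that of histidine. The branched-chain members other than *Ivd* ran up to 0.20 and were not called, nor were *Gldc*, which cleaves glycine, at 0.44, *Sds* or *Rida*. *Agxt*, the alanine-glyoxylate aminotransferase of the peroxisome, measured 327 ± 49.7 and 205 ± 30.8 CPM. Its groups did not overlap, and its adjusted p was 0.0554.

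Markers of other liver cells moved in the same contrast. Of 6 hepatocyte markers 3 were lower in Sham HFD, of 7 macrophage markers 5 were higher, and all 6 stellate markers were higher. Summed, the hepatocyte markers lay between 81459 and 101464 CPM in Sham Chow and between 73012 and 85397 in Sham HFD, the macrophage markers between 110 and 292 and between 267 and 362, and the stellate markers between 118 and 186 and between 235 and 279. Their part in the fall of the urea cycle members was not tested. The count of 7 lower members was 2 without Sham Chow replicate 5, 3 without Sham Chow replicate 3 or Sham HFD replicate 4, 4 without Sham HFD replicate 1 or 3, and 11 without RYGB Chow replicate 3, which is in neither group and enters through the shared estimate of spread. Without Sham Chow replicate 2 it was 9, and the members' median log2 fold change was -0.25. The shares of all genes called in these fits were not counted, so the changed counts are not read as particular to the members.

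Under HFD, 1 member was higher and 5 were lower after RYGB. In Sham HFD vs. RYGB HFD, *Cps1* alone was higher in RYGB HFD, 2.63% of the members where 8.54% of all tested genes were higher. The lower members were *Dglucy*, *Asrgl1*, *Rida*, *Cryl1* and *Gpt2*, 13.2% where 7.90% of all genes were lower. All of them but *Gpt2* are genes that the study named from these samples, so their count is not independent evidence of direction. Without those 4, 1 of 34 members was higher and 1 lower by edgeR, and DESeq2 also called *Gldc* lower. The members' median log2 fold change was -0.06, beside 0.01 over all genes, and 23 of 38 lay below 0. With library size only, which moves the median of all genes by -0.09, 29 of 38 lay below 0. In 10 of 38 members the groups did not overlap, 26.3% where 14.7% of all genes did not. Without the 4 genes that the study names, 7 of 34 did not overlap.

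*Cps1* measured 2979, 3181, 3444, 3238 and 4688 CPM in the RYGB HFD mice. All of them lay above the highest Sham HFD mouse, at 2147 CPM, and replicate 5 stood apart at the top. The log2 fold change was 0.86 (standard error 0.19, adjusted p = 0.00436), and without RYGB HFD replicate 5 it was 0.73, the lowest over the mice left out. The other 6 urea cycle members were not called. *Ass1* stood at 2205, 2125, 2010, 2048 and 2971 CPM in RYGB HFD, where only replicate 5 left the Sham HFD range by much (log2 fold change 0.12, adjusted p = 0.748). *Asl* lay at 327, 337, 287, 276 and 374 CPM, mostly below its Sham HFD values (-0.27, adjusted p = 0.367). *Arg1* gave 850, 988, 877, 828 and 1150 CPM, within or near the Sham HFD range (0.04, adjusted p = 0.911). *Otc* stood at 415, 411, 461, 473 and 422 CPM (-0.17, adjusted p = 0.376), and *Nags* and *Slc25a15* at 0.07 and -0.11 on the log2 scale, not called.

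The 4 members that the study names were all lower in RYGB HFD. *Dglucy* was at 54.8, 49.1, 55.0, 41.5 and 39.8 CPM there, below all Sham HFD mice and around the Sham Chow values (log2 fold change -0.76, standard error 0.10, adjusted p = 3.86e-05). *Asrgl1* was at 11.4, 10.7, 9.95, 8.38 and 8.95 CPM, also below all Sham HFD mice (-0.74, standard error 0.10, adjusted p = 4.80e-05). *Rida* (ENSMUSG00000022323, chromosome 15, 34484021 to 34495255) counted 543, 594, 569, 528 and 537 CPM in Sham HFD and 339, 361, 322, 363 and 355 CPM in RYGB HFD. Within each group its mice lay close together, and the gap between the groups was 165 CPM. Its log2 fold change was -0.67 (standard error 0.08, adjusted p = 1.77e-05). *Cryl1* (ENSMUSG00000021947, chromosome 14, 57274993 to 57398529), whose product, lambda-crystallin, is a dehydrogenase of gulonate, gave 21.9, 20.9, 23.3, 20.9 and 15.7 CPM in Sham HFD and 9.06, 16.2, 9.54, 10.2 and 8.95 CPM in RYGB HFD. The groups overlapped only through Sham HFD replicate 5 and RYGB HFD replicate 2, and the log2 fold change was -0.92 (standard error 0.15, adjusted p = 0.000304).

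*Gpt2*, the mitochondrial alanine aminotransferase, was the lower member outside those 4. It fell from 581 ± 55.6 to 383 ± 47.1 CPM (mean ± SD, n = 5), without overlap (log2 fold change -0.60, standard error 0.14, adjusted p = 0.00551), while *Gpt*, its cytosolic counterpart, measured -0.18 (adjusted p = 0.515). *Gls2*, *Uroc1* (urocanate hydratase of histidine breakdown) and *Mccc1* (a carboxylase subunit of leucine breakdown) were lower without overlap between groups but were not called, at -0.36, -0.32 and -0.27 on the log2 scale. *Fah*, the last enzyme of tyrosine breakdown, and *Agxt* were higher without overlap and not called, at 0.16 and 0.67. The other tyrosine, tryptophan, histidine and branched-chain members overlapped between the groups and were not called, with log2 fold changes within -0.23 to 0.27. *Gldc* gave -0.49 (adjusted p = 0.0799) and was not called by edgeR with TMM scaling. DESeq2 called *Gldc* lower, and library size only called *Gldc*, *Gls2*, *Uroc1* and *Mccc1* lower. Of 6 hepatocyte markers, 4 were higher and 1 lower in RYGB HFD, with sums from 100477 to 121729 CPM against 73012 to 85397 in Sham HFD, and 3 of 6 stellate markers were lower. Their part in the result was not tested. Without RYGB Chow replicate 3, in neither group, 8 members were lower and 2 higher. Without RYGB HFD replicate 5, 7 were lower, *Tdo2* and *Gldc* among them, and 1 was higher. The median log2 fold change was then -0.10, with 24 of 38 below 0. For these fits too, the shares of all genes called were not counted, and the changed counts are not read as particular to the members.

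**Figure D4:**
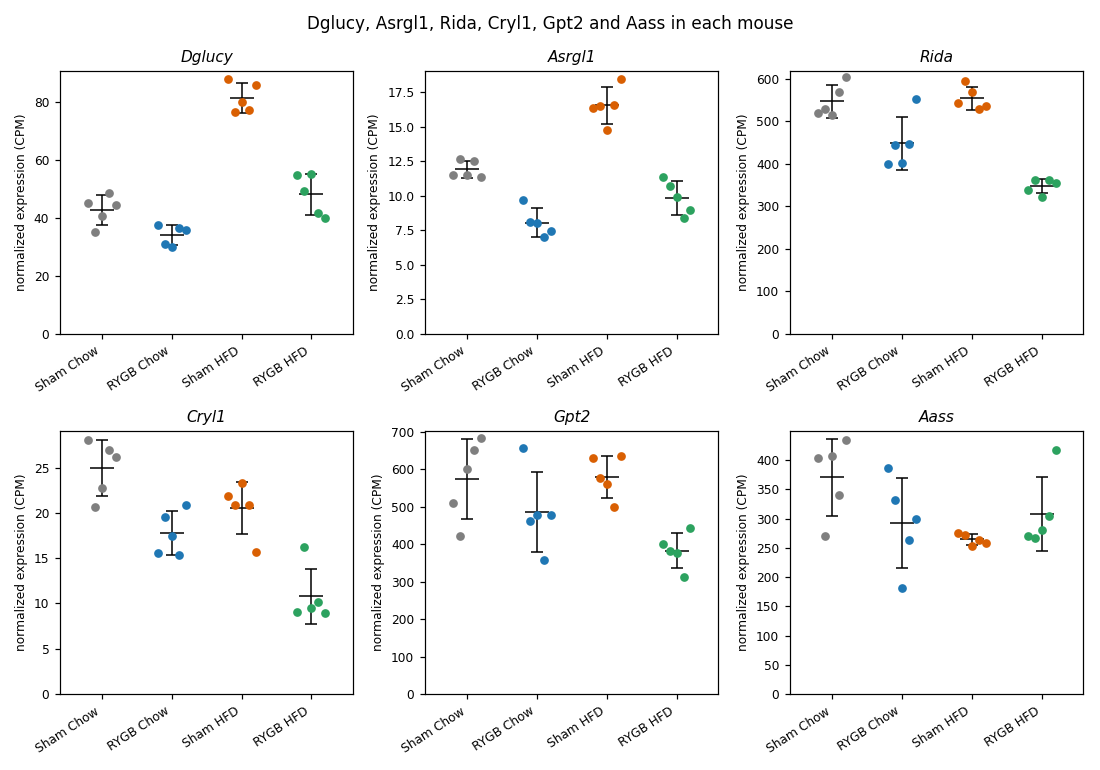
CPM of *Dglucy*, *Asrgl1*, *Rida*, *Cryl1*, *Gpt2* and *Aass* in each mouse (points), with the group mean (long bar) and SD (whiskers, n = 5 mice), on axes from 0. *Dglucy* in Sham HFD (76.5 to 87.8 CPM) and *Rida* in RYGB HFD (322 to 363 CPM) are apart from all other groups.

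Under chow, surgery changed 1 member by the test. In Sham Chow vs. RYGB Chow, *Asrgl1* was lower, 2.63% of the members where 0.00814% of all tested genes were lower, and it was the only gene of the 12289 so called. As *Asrgl1* is one of the 4 genes that the study chose on these samples, its share is not independent evidence. Without those 4, 0 of 34 members were lower, 9 had an unadjusted p below 0.05 by edgeR, and DESeq2 also called 0. None of the 38 was higher, where 0.0488% of all genes were. *Asrgl1* lay at 9.72, 8.11, 8.05, 7.02 and 7.45 CPM in RYGB Chow, all below the lowest Sham Chow mouse at 11.4 CPM (log2 fold change -0.56, standard error 0.10, adjusted p = 0.0473). It was the 1 member of 38 whose groups did not overlap, 2.63%, where 1.33% of all genes did not. The call was lost in 18 of the 20 fits that left out 1 mouse, all but those without RYGB Chow replicate 1 or RYGB HFD replicate 1. It was also lost without the filter, with library size only and with the replicate number as a block (adjusted p from 0.00108 to 0.149 over all settings), while its log2 fold change stayed between -0.64 and -0.51.

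Most other members leaned the same way without passing. The log2 fold change was below 0 for 36 of 38 members, with a median of -0.23 beside 0 over all genes, and 13 had an unadjusted p below 0.05. *Gls2* measured -0.55 (standard error 0.16, adjusted p = 0.227), *Cryl1* -0.49 (adjusted p = 0.245), *Dglucy* -0.33 (adjusted p = 0.257) and *Rida* -0.29 (adjusted p = 0.207). All 7 urea cycle members lay between -0.43 and -0.11. The lean was smaller without 1 mouse. Without RYGB Chow replicate 3 the median was -0.13 and 32 of 38 members lay below 0, and without Sham Chow replicate 2 it was -0.32, with 37 below 0.

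The per-mouse values show that pattern. In RYGB Chow, *Cps1* stood at 4363, 4477, 2185, 2722 and 3526 CPM. *Otc* lay at 402, 479, 257, 449 and 511 CPM. The values of *Ass1* were 3084, 2863, 1100, 2401 and 3254 CPM. In each of these genes replicate 3 was the lowest of the group, and the ranges of both chow groups overlapped. *Asl* gave 594, 464, 229, 382 and 556 CPM. *Arg1* gave 1430, 1151, 751, 980 and 1571 CPM, and both were again lowest in replicate 3. *Dglucy* measured 37.4, 30.8, 30.0, 36.5 and 35.7 CPM. *Rida* counted 399, 444, 401, 446 and 553 CPM. *Cryl1* was at 15.6, 19.5, 17.5, 15.4 and 20.9 CPM. For these 3 genes replicate 3 was in or near the range of the other RYGB Chow mice. *Cryl1* in Sham Chow lay at 28.0, 20.6, 22.8, 27.0 and 26.2 CPM. *Rida* lay at 519, 529, 515, 568 and 605 CPM there. For both genes 1 RYGB Chow mouse, replicate 5, reached into the Sham Chow range.

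Diet after RYGB moved few members. In RYGB Chow vs. RYGB HFD, *Dglucy* was higher in RYGB HFD, 2.63% of the members where 1.99% of all genes were higher, at 0.50 on the log2 scale (standard error 0.10, adjusted p = 0.00921). *Rida* and *Cryl1* were lower, 5.26% where 1.65% of all genes were lower, at -0.37 (standard error 0.08, adjusted p = 0.0156) and -0.71 (standard error 0.15, adjusted p = 0.0125). Outside the 4 genes the study names, 0 of 34 members were called by edgeR, 6 had an unadjusted p below 0.05, and DESeq2 also called 0. Without RYGB Chow replicate 3, *Asl* was called lower, and without RYGB HFD replicate 5, *Tdo2* was. In *Dglucy* and *Rida*, 2 of 38 members or 5.26%, the groups did not overlap, where 5.05% of all genes did not. Both are genes that the study names. The median log2 fold change was 0.00 for the members and for all genes, with 18 of 38 members below 0. It was -0.14 with 28 below 0 without RYGB Chow replicate 3, and -0.06 with 22 below 0 without RYGB HFD replicate 5. *Cps1* differed by 0.02 (standard error 0.19, adjusted p = 0.972) and *Asl* by -0.48 (adjusted p = 0.175).

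**Figure D5:**
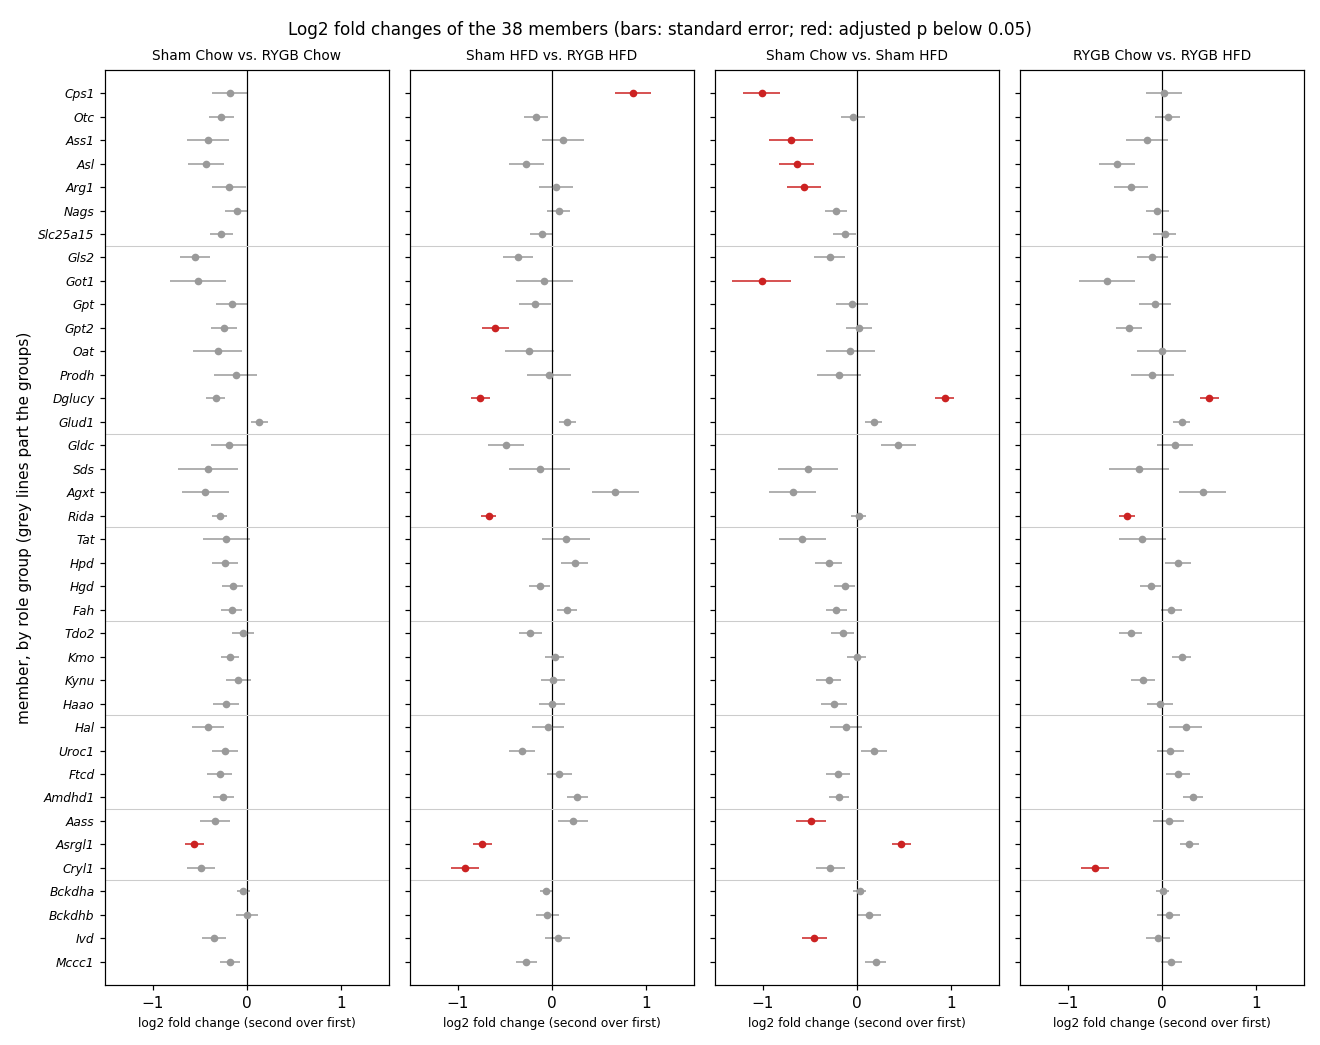
Log2 fold changes (points) and standard errors (bars) of the 38 members in the 4 contrasts, by role group, with those at an adjusted p below 0.05 in red. In Sham Chow vs. Sham HFD 4 of 7 urea cycle members are red and below 0, and in Sham Chow vs. RYGB Chow 36 of 38 points lie below 0 with 1 red.

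Whether surgery acted differently on the 2 diets was tested as an interaction, the log2 fold change of surgery under HFD less that under chow. *Cps1* was the 1 member called, at 1.03 (standard error 0.27, adjusted p = 0.0332), 2.63% of the members where 2.48% of all genes were above 0 and called. None was called below 0, where 2.58% of all genes were, although library size only called *Rida* and *Dglucy* there and DESeq2 called *Rida*. For *Cps1*, surgery measured 0.86 under HFD and -0.18 under chow. The call was lost with 10 of 20 mice left out, namely all Sham Chow mice but replicate 2, all Sham HFD mice but replicate 1, RYGB Chow replicate 4 and RYGB HFD replicate 5, and with the replicate number as a block (adjusted p up to 0.0666). The interaction was 1.11 for *Agxt* (adjusted p = 0.0702) and 0.52 for *Amdhd1*, an enzyme of histidine breakdown (0.0641), which DESeq2 called. It was -0.38 for *Rida* (0.0574) and -0.43 for *Dglucy* (0.0862), adjusted as above. With TMM scaling and all mice, none of these passed in edgeR. The members' median was 0.16, beside 0.02 over all genes, and 26 of 38 lay above 0. Without RYGB Chow replicate 3 the median was 0.01 with 19 of 38 above 0, and without RYGB HFD replicate 5 it was 0.08 with 22 above 0. Without Sham Chow replicate 2 it was 0.26 with 28 above 0, and *Cps1*, *Agxt* and *Amdhd1* were called above 0. Without RYGB Chow replicate 3, *Cps1* and *Agxt* were called above 0 and *Rida* below.

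Further genes of the same pathways, with transporters and regulators, were listed with the members' pathways in mind and with earlier results of these data known. Their shares are therefore not independent evidence. Their calls come from edgeR with TMM scaling and all mice, and fits without a mouse or with other settings are not given for them. Of 47 tested catabolic enzymes that are not members, 8 were lower and 3 higher in Sham HFD than in Sham Chow, 17.0% and 6.38% beside 10.7% and 10.9% of all genes. *Acmsd*, which draws tryptophan carbon away from NAD synthesis, fell by 1.65 on the log2 scale (standard error 0.31, adjusted p = 0.000947), *Gcat*, of threonine breakdown, by 1.13, and *Afmid*, of the kynurenine route, by 0.82. *Glul*, glutamine synthetase, which binds the ammonia that the urea cycle leaves, rose by 0.86 (standard error 0.13, adjusted p = 8.94e-05). Under HFD, surgery went the other way for 3 of these: *Acmsd* and *Gcat* rose by 1.17 and 0.78 and *Glul* fell by 0.47, among 4 enzymes higher and 3 lower, 8.51% and 6.38% beside 8.54% and 7.90% of all genes. The interaction passed for *Acmsd* (1.73), *Gcat* (0.96), *Afmid* (0.60) and *Glul* (-0.80). Under chow, surgery called 0 of the 47 by edgeR, with 11 at an unadjusted p below 0.05, and diet after RYGB called 1, *Ppm1k*, the phosphatase that activates branched-chain breakdown, higher by 0.39.

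Of 10 amino acid transporters, 2 were lower and 1 higher in Sham HFD than in Sham Chow, 20% and 10% beside 10.7% and 10.9% of all genes. *Slc43a1*, a carrier of large neutral amino acids, fell by 1.49 (standard error 0.33, adjusted p = 0.00343) and *Slc38a2*, a carrier of small neutral ones, by 0.84, while *Slc3a1* rose by 0.64. In Sham HFD vs. RYGB HFD 3 rose, *Slc43a1* by 1.11, *Slc38a2* by 0.62 and *Slc6a13* by 0.34, 30% beside 8.54%, and the interaction passed for *Slc43a1* at 1.82. Of 9 regulators, *Hnf4a*, *Cebpa* and *Atf4*, transcription factors of hepatocyte, metabolic and amino acid response genes, were lower in Sham HFD by 0.43, 0.30 and 0.36, 33.3% beside 10.7%. *Hnf4a* and *Foxo1* were higher in RYGB HFD than in Sham HFD by 0.49 and 0.42, 22.2% beside 8.54%. *Gcgr*, the glucagon receptor, *Klf15*, *Nr3c1*, *Ppargc1a* and *Cebpb* were called in none of the contrasts. In the chow surgery and RYGB diet contrasts edgeR called 0 of the transporters, with 4 and 3 at an unadjusted p below 0.05, and 0 of the regulators, with 0 and 4. Both Sham HFD contrasts share their Sham HFD mice, so opposite signs in them are not independent.

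RefSeq promoters (GRCm38.p6, 250 bases before to 50 after the start) were found for 30 of the 39 listed genes, 32 promoters in all, among 32851. On both strands, 5 short words were searched. The cAMP response element TGACGTCA, the site of the factor that glucagon activates, was in 0 of 32 and in 1.79% of all promoters. The shorter TGACG, which the whole word contains, was in 4 of 32 (*Aass*, *Oat*, *Ftcd* and *Nags*) and in 20.8% of all. The HNF4 word AAAGTCCA was in *Hgd* alone (1.25% of all), the C/EBP word TTGCGCAA in 0 (0.183%), and the glucocorticoid receptor word TGTTCT in *Agxt*, *Kmo*, *Bckdhb* and *Haao* (19.0%). Of the 12 members called in any contrast, *Cps1*, *Asl*, *Arg1* and *Rida* had no promoter in the table and were not searched. The other 8 had a promoter there, and only that of *Aass* held a word. It is shown with those of *Dglucy* and *Asrgl1*, which were higher in Sham HFD than in both Sham Chow and RYGB HFD and hold none of the words. Each is written 5′ to 3′ on the strand of its gene, with a matched word in capitals. They lie at chr6:23132937-23133236 (minus strand), chr12:100778807-100779106 (plus strand) and chr19:9135517-9135816 (minus strand).
Aass: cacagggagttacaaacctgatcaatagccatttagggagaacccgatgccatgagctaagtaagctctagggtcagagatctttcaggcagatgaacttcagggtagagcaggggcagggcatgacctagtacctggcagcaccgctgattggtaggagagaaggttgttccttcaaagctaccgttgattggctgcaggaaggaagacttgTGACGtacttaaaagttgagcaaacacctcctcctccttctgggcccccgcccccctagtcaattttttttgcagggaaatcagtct
Dglucy: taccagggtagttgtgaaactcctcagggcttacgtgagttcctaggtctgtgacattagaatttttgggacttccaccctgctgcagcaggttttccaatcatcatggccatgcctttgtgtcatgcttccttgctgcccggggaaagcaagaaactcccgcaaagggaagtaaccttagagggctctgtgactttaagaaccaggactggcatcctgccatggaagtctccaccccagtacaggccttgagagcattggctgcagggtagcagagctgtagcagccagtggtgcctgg
Asrgl1: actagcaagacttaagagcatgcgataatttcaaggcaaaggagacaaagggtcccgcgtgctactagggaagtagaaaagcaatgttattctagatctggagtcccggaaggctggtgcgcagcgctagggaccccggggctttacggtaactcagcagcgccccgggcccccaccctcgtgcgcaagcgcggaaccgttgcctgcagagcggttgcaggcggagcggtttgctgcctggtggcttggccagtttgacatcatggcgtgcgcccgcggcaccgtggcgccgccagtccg
A match is a run of letters and not a tested binding site, and the members' share was not tested against that of all promoters.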

How the data were processed

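The authors trimmed paired-end reads of poly-A enriched liver RNA (Trimmomatic 0.36), aligned them to mm10 (HISAT2 2.1.0) and deposited the read counts per Ensembl gene that featureCounts 1.5.0-p3 assigned, without normalization. The annotation release, the strand setting and the treatment of multiply mapped reads are not given in the sources used here. Symbols, positions and exon lengths were taken from GENCODE M21 (GRCm38), which named 54495 of the 54532 genes.

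Counts were scaled by TMM and tested with edgeR 4.0.16 (R 4.3.3) by the quasi-likelihood test, two-sided, in one model of the 4 groups, for the 4 contrasts and the surgery by diet interaction, with Benjamini-Hochberg adjustment over the 12289 genes that reached 2 CPM in 3 or more mice. Depth was 14604854 to 22537498 counts per mouse. The biological coefficient of variation was 0.181, and 0 pairs of columns were identical. A simulation of Sham HFD vs. RYGB HFD on 12110 genes changed 200 genes drawn at random, in RYGB HFD only. In it, 60% of 1.5-fold and 81% of 2-fold changes were called, and 11 of 152 calls were false. Tables and figures were made with Python 3.11.15.

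The 39 members, role groups, further pathway genes, markers and promoter words were chosen with earlier results of these data known. Every called member is named, and values in every mouse are given for the 3 called members with the smallest p in each contrast, for *Cps1*, *Otc*, *Ass1*, *Asl* and *Arg1*, and for the 4 members that the study's text names. Mice named for their low or high values were chosen after seeing the data. Marker lists of sinusoidal endothelium, red cells and pancreas had 0 called genes in any of the 4 contrasts by edgeR. Those of cholangiocytes and lymphocytes had 1 each, higher in Sham HFD than in Sham Chow. That of adipocytes had 1, higher in RYGB HFD than in RYGB Chow. Only 1 of 4 pancreas, 1 of 4 adipocyte, 2 of 5 cholangiocyte and 2 of 6 lymphocyte markers passed the filter and were tested. Few calls in these lists therefore do not show that these cells were steady.

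The alternatives were DESeq2 1.42.0, RLE factors, library size only, no filter, the replicate number as a block, and leaving out each of the 20 mice. The labels name no batch.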

Additional observations from a re-analysis of the deposited data

Results flagged for a closer look

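Within the 152 combinations of a member and a group of 5 mice, 18 had 1 mouse apart from the other 4 by Dixon's criterion, which chance meets in about 5% of groups. Sham Chow replicate 2 was low for *Cps1* (2179 CPM, the other mice 3976 to 4653), *Uroc1* (343 CPM, others 442 to 477) and *Agxt* (242 CPM, others 334 to 371). RYGB Chow replicate 3 was low for *Gls2* (190 CPM, others 369 to 409), *Hpd* (1054 CPM, others 1751 to 1979), *Ftcd* (253 CPM, others 427 to 470) and *Ivd* (117 CPM, others 222 to 233). RYGB HFD replicate 5 was high for *Cps1* (4688 CPM, others 2979 to 3444), *Ass1* (2971 CPM, others 2010 to 2205), *Tat* (709 CPM, others 458 to 492), *Got1* (295 CPM, others 107 to 149) and *Aass* (417 CPM, others 266 to 305).

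The remaining 6 were spread over other mice. *Tat* stood at 1178 CPM in RYGB Chow replicate 1, where the others had 404 to 562. In Sham HFD, *Hgd* was low in replicate 2 (453 CPM), *Fah* in replicate 3 (450 CPM) and *Got1* in replicate 4 (134 CPM), and *Bckdhb* was high in replicate 5 (81.5 CPM). *Cryl1* was at 16.2 CPM in RYGB HFD replicate 2, the others at 8.95 to 10.2.

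The effect of surgery on *Cps1* differed between the diets by 1.03 on the log2 scale in the interaction test (adjusted p = 0.0332), being 0.86 under HFD and -0.18 under chow. The call was lost in 10 of the 20 fits without 1 mouse and with the replicate number as a block, with adjusted p from 0.00468 to 0.0666 over all settings.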

How the results depend on the processing

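No called member changed direction under any alternative. Over the 20 called pairs of member and contrast, DESeq2 and RLE factors kept all calls, library size only lost 2 (*Asrgl1* in Sham Chow vs. RYGB Chow and *Aass*), no filter lost 1 (*Asrgl1*, same contrast), and over the fits without 1 mouse 346 calls held and 54 were lost. Members lower in Sham Chow vs. RYGB Chow numbered 2 with DESeq2 (*Rida* and *Asrgl1*), 0 with library size only, no filter or the replicate block, and 0 to 1 with mice left out. In Sham HFD vs. RYGB HFD, 9 were lower with library size only, 6 with DESeq2 and 5 to 8 with mice left out, and 1 to 2 were higher. In Sham Chow vs. Sham HFD, 5 were higher with library size only and 2 to 3 with mice left out, and 2 to 11 were lower. In the interaction, DESeq2 called 2 above 0 and 1 below, library size only 2 below, and fits without a mouse 0 to 3 above and 0 to 1 below. Shares of all genes called were counted only for edgeR with TMM scaling and all mice. Changes in the member counts are therefore not read as particular to the members. Library size only moves the median of all genes by 0.13 in Sham Chow vs. Sham HFD. In Sham HFD vs. RYGB HFD the shift is -0.09 and in the interaction -0.14, so members are read relative to these shifts.

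The replicate numbers are not said to pair mice. Deviations of same-numbered mice had a median correlation of -0.0112 over 30 pairs, beside 0.00115 over 120 others, and 0 of the 20 mice matched best with their own number. With the number as a block, the *Asrgl1* call under chow and the *Cps1* interaction were lost (0 members above 0), and 18 of 20 calls held. At this spread, 60% of simulated 1.5-fold changes were called, so smaller differences can go uncalled. The simulation changed 200 genes, where the real Sham HFD vs. RYGB HFD contrast called 1050 higher and 971 lower. Its share is therefore not the power for these members or for the other contrasts.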
